A study of Mus musculus with 6 samples.

Results

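A set of 8 red cell membrane and blood group genes, *Ermap*, *Rhag*, *Rhd*, *Kel*, *Slc4a1*, *Epb42*, *Sptb* and *Ank1*, was followed in the spleens of female NOD mice, which become diabetic through an autoimmune attack on the pancreatic islets. Members were taken by gene symbol, and the 8 genes had 15 probe sets among the 45037 non-control probe sets on the array, which name 18193 genes singly. *Ermap* is included because the study names this transcript from the same arrays, and the other genes were picked with results from these arrays already known, on the log2 levels in the 3 groups, so their levels and differences are given below as a description without tests.

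The 6 Affymetrix mouse arrays fell into 3 groups. Untreated non-diabetic mice remained free of disease, untreated diabetic mice developed it, and the third group received weekly subcutaneous Trichostatin A (TSA, an inhibitor of histone deacetylases) at 500 µg per kg between 18 and 24 weeks of age and was free of diabetes when killed. The labels give an age of 32 to 36 weeks for every group, whereas the methods give younger ages for the diabetic mice and, less so, for the TSA-treated mice, so that age may also differ between the groups. RNA from the splenocytes of 3 to 5 mice was pooled per group according to the series description (the methods give a slightly larger number), and each pool was hybridized to 2 arrays, so that the spread between replicates is technical and no value carries the variation among mice. The TSA group holds only mice in which the treatment was followed by freedom from diabetes. A group of non-diabetic mice injected with vehicle was not analysed here, and whether red cells were lysed before RNA extraction is not given in the sources used here.

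Red blood cells mature from nucleated erythroblasts, and in the mouse the spleen supports this process in adult life together with the bone marrow. During maturation the cell builds a membrane in which the anion exchanger band 3 and the Rh complex sit in the lipid layer and are tied, through ankyrin and protein 4.2, to an elastic network of spectrin below it. Several of the surface proteins carry blood group antigens in humans, among them Ermap (Scianna), Rhd and Rhag (Rh and RHAG) and Kel (Kell). Erythroid genes are commonly bound by the factor GATA1 at the short word GATA and by KLF1 at CACCC boxes.

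The upstream sequences of 4 of the genes are shown because these genes fall into both patterns described below: *Ermap* and *Epb42* were higher on both TSA arrays, and *Rhag* and *Kel* differed widely between the TSA arrays. Each line gives the 250 bases before the start of the transcript in the RefSeq table (GRCm38.p6), read 5′ to 3′ on the strand of the gene. Capitals mark AGATAA or TGATAA, or their reverse complements TTATCT and TTATCA. The windows lie at chr4:119189996-119190245 on the minus strand (*Ermap*), chr2:121036878-121037127 on the minus strand (*Epb42*), chr17:40810899-40811148 on the plus strand (*Rhag*) and chr6:41704326-41704575 on the minus strand (*Kel*).
Ermap: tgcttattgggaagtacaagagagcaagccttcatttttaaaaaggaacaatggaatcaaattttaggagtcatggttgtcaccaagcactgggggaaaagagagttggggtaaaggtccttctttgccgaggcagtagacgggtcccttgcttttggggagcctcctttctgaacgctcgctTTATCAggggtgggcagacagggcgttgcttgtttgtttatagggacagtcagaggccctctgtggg
Epb42: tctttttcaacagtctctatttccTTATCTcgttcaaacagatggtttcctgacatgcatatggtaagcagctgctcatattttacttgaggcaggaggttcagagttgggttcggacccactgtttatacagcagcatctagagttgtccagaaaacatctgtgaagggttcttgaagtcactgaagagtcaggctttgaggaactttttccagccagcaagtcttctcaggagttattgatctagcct
Rhag: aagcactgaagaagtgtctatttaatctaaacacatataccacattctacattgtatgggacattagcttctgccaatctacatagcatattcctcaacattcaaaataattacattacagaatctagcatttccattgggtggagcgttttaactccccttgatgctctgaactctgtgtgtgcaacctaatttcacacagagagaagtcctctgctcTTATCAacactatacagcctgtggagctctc
Kel: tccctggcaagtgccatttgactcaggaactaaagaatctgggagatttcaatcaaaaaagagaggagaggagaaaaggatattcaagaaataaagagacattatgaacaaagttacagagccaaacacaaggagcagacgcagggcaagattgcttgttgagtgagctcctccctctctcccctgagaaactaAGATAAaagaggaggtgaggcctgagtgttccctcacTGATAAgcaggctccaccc

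The word in the *Ermap* window began 67 bases before the start and lay on the opposite strand. In *Rhag* the match was also on the opposite strand, 31 bases before the start, while *Kel* had both words on its own strand, AGATAA at 56 and TGATAA at 19 bases. The annotated *Rhag* gene begins earlier, at chr17:40811099 inside its window, so that this match lies within the gene. The *Ermap* and *Kel* windows also reach into the annotated genes, which end at chr4:119190013 and chr6:41704334, but not as far as the marked words. *Epb42* had its match far upstream, at 226 bases. Of the 6 members with an entry in the table, *Rhd* had AGATAA at 43 bases before its start (window chr4:134864286-134864535, plus strand) and *Sptb* had neither word (window chr12:76710548-76710797, minus strand, 65.2% G and C). In all, 5 of 6 windows held AGATAA or TGATAA on either strand, against 17.0% of 27025 promoter windows of the same length, with AGATAA in 10.3% of them and TGATAA in 8.16%. The word CACACCC was in 0 of the 6 windows and in 6.85% of all, and the shorter CACCC, which was looked for afterwards and is not marked by capitals, was on either strand in 5 of the 6 (all but *Epb42*) and in 51.3% of all. No 2 of the marked words overlapped. A match of letters describes the sequence only and is not evidence of binding.

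Before the levels of the genes are given, the arrays themselves need a description. Over all probe sets the 2 untreated non-diabetic arrays correlated at 0.993, the 2 diabetic arrays at 0.973 and the 2 TSA arrays at 0.966. Diabetic replicate 2 correlated better with TSA replicate 1 (0.990) than with its own duplicate. The second TSA array stood apart from the other 5: its probe set for the 3′ end of beta-actin read 5.61 log2 units above that for the 5′ end, and for Gapdh the gap was 4.58 against 1.82 to 3.85 on the others. The beta-actin gap was 2.35 and 2.05 on the untreated non-diabetic arrays, 2.42 and 3.32 on the diabetic arrays and 3.45 on TSA replicate 1, so that it too separated the 3 groups in the order untreated non-diabetic, diabetic, TSA-treated. Labeling starts at the 3′ end of the RNA, and this gap is a usual measure of its length. The main results in TSA-treated mice are therefore also given on each TSA array, and the part of the 3′ to 5′ gap in any of the differences below was not tested.

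All levels below are log2 values on the scale of the deposited table, and differences are differences of group means on that scale, with a standard error (SE) from the spread between the 2 arrays per group. A gene with several probe sets is represented by the brightest one, on average, of those annotated to no other gene, and levels are not compared between genes. The diabetic and the TSA group were both set against the same 2 untreated non-diabetic arrays. Because the RNA came from whole cell mixtures, more cells of a type and more RNA per cell cannot be told apart.

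The gene that led the choice, *Ermap*, encodes an immunoglobulin-family protein of the erythroblast surface that is related to the butyrophilins. On the untreated non-diabetic arrays it read 10.34 and 10.29, on the diabetic arrays 10.87 and 11.17, and on the TSA arrays 11.55 and 11.84. The 3 groups did not overlap, with untreated non-diabetic mice lowest and TSA-treated mice highest, and the 6 arrays ranked as they did by their beta-actin 3′ to 5′ gap. Diabetic mice exceeded untreated non-diabetic mice by 0.70 (SE 0.15, 1.63-fold) and TSA-treated mice exceeded them by 1.38 (SE 0.15, 2.60-fold). Diabetic minus TSA-treated was -0.67 (SE 0.21). Over all probe sets, 2.55% had a difference at least as high between diabetic and untreated non-diabetic mice and 0.704% had one at least as high between TSA-treated and untreated non-diabetic mice. Without TSA replicate 2 the difference of TSA-treated mice was 1.23, and without TSA replicate 1 it was 1.52.

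*Epb42*, which encodes protein 4.2, a transglutaminase relative without enzyme activity that joins band 3 to ankyrin, covered the widest range of the 8 genes. It read 6.83 and 6.45 in untreated non-diabetic, 7.90 and 8.18 in diabetic and 8.88 and 8.77 in TSA-treated mice. As with *Ermap*, the groups were fully separated and in the same order. The difference from untreated non-diabetic mice was 1.40 (SE 0.23, 2.65-fold) in diabetic mice and 2.19 (SE 0.20, 4.56-fold) in TSA-treated mice. Only 0.164% and 0.109% of all probe sets were at least as high in these comparisons. The second *Epb42* probe set was dim, at 3.72 to 4.24 on the 6 arrays against array medians of 3.79 to 3.95, and gave a difference of -0.06 for TSA-treated mice.

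**Figure D1:**
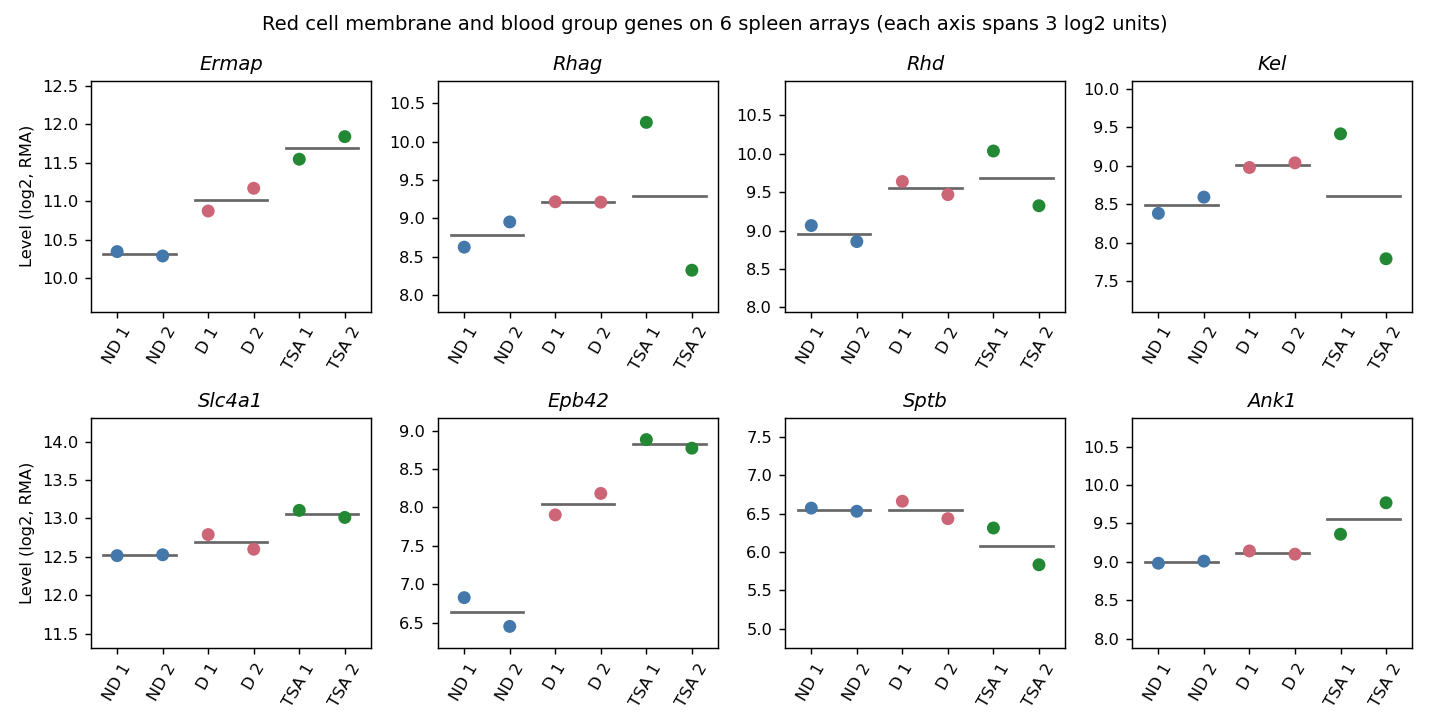
Log2 level of each of the 8 genes (1 probe set per gene) on the 6 arrays. Points are single arrays of untreated non-diabetic (ND), diabetic (D) and TSA-treated (TSA) pools, horizontal lines are group means, and every vertical axis spans the same number of log2 units. *Ermap* and *Epb42* step upward from ND to D to TSA, whereas *Rhag* and *Kel* are highest on TSA replicate 1 and lowest on TSA replicate 2.

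The Rh proteins gave another picture. *Rhag*, the Rh-associated glycoprotein that brings the Rh complex to the membrane and conducts ammonia, read 8.63 and 8.95 in untreated non-diabetic mice, 9.22 and 9.21 in diabetic mice, and 10.25 and 8.33 in TSA-treated mice. Both diabetic arrays lay above both untreated non-diabetic arrays, by 0.42 on average (SE 0.16). The TSA arrays held the highest and the lowest value of the 6, a gap of 1.92 between labelings of the same pool. The mean difference of TSA-treated mice was 0.50 with an SE of 0.98, which is made of 1.46 on replicate 1 and -0.46 on replicate 2.

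*Rhd*, the mouse Rh blood group polypeptide, read 9.07 and 8.86 in untreated non-diabetic, 9.64 and 9.47 in diabetic and 10.04 and 9.32 in TSA-treated mice. The 4 arrays of the latter groups all lay above the untreated non-diabetic arrays, and the TSA arrays enclosed the diabetic ones. The differences from untreated non-diabetic mice were 0.59 (SE 0.13) in diabetic and 0.72 (SE 0.37) in TSA-treated mice. TSA replicate 1 contributed 1.07 and replicate 2 contributed 0.36 to the latter.

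*Kel*, an endopeptidase of the red cell surface that cleaves a precursor of endothelin-3, followed *Rhag*. Its levels were 8.38 and 8.59, then 8.98 and 9.04, and finally 9.42 and 7.79 in untreated non-diabetic, diabetic and TSA-treated mice. The diabetic arrays were above the untreated non-diabetic ones by 0.52 (SE 0.11), and the TSA arrays again held the highest and the lowest value. Their mean differed from untreated non-diabetic mice by 0.12 with an SE of 0.82. Without TSA replicate 2 this value was 0.93, and without TSA replicate 1 it was -0.70.

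*Slc4a1*, which encodes band 3, the chloride and bicarbonate exchanger and main anchor of the membrane skeleton, had 3 probe sets that did not read alike. The brightest, whose _x_at suffix marks probes that can also pair with other transcripts, read 12.52 and 12.53 in untreated non-diabetic, 12.79 and 12.60 in diabetic and 13.10 and 13.01 in TSA-treated mice. Here the groups were separated in the order seen for *Ermap*, with differences of 0.17 (SE 0.10) for diabetic and 0.54 (SE 0.05) for TSA-treated mice. The next brightest read 11.46 and 11.36, 11.98 and 11.82, and 12.10 and 10.69 in the same order of groups, and its TSA arrays were the highest and the lowest of the 6. On this probe set TSA-treated mice differed by -0.02 (SE 0.71), which is 0.68 on replicate 1 and -0.72 on replicate 2. The direction of *Slc4a1* in TSA-treated mice on the second array thus differed between its bright probe sets. The third was dim, at 2.81 to 3.06.

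The skeleton genes *Ank1* and *Sptb* differed from each other. *Ank1*, whose product ankyrin fastens spectrin to band 3, read 8.98 and 9.01 in untreated non-diabetic, 9.14 and 9.10 in diabetic and 9.36 and 9.77 in TSA-treated mice on its brightest probe set. The groups did not overlap, and the differences were 0.13 (SE 0.02) for diabetic and 0.57 (SE 0.21) for TSA-treated mice, the latter made of 0.36 on replicate 1 and 0.77 on replicate 2. A second *Ank1* probe set gave 6.17 and 6.06, 6.71 and 6.71, and 6.89 and 6.51, so that diabetic mice were higher by 0.60 and TSA-treated mice by 0.59, with no step between them. The remaining *Ank1* probe sets were dim, 1 at 3.87 to 5.03 with its highest and lowest value on the diabetic arrays, and the other at 2.41 to 2.98.

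*Sptb*, the beta chain of spectrin, was the only member whose TSA arrays were below the untreated non-diabetic ones. It read 6.57 and 6.53 in untreated non-diabetic, 6.66 and 6.43 in diabetic and 6.31 and 5.83 in TSA-treated mice. The diabetic arrays enclosed the untreated non-diabetic values, and TSA-treated mice differed by -0.48 (SE 0.24), which is -0.24 on replicate 1 and -0.72 on replicate 2. Between diabetic and TSA-treated mice the difference was 0.47 (SE 0.27). Its other probe set was near the array medians, at 4.04 to 4.65, and differed by -0.03 in TSA-treated mice.

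**Figure D2:**
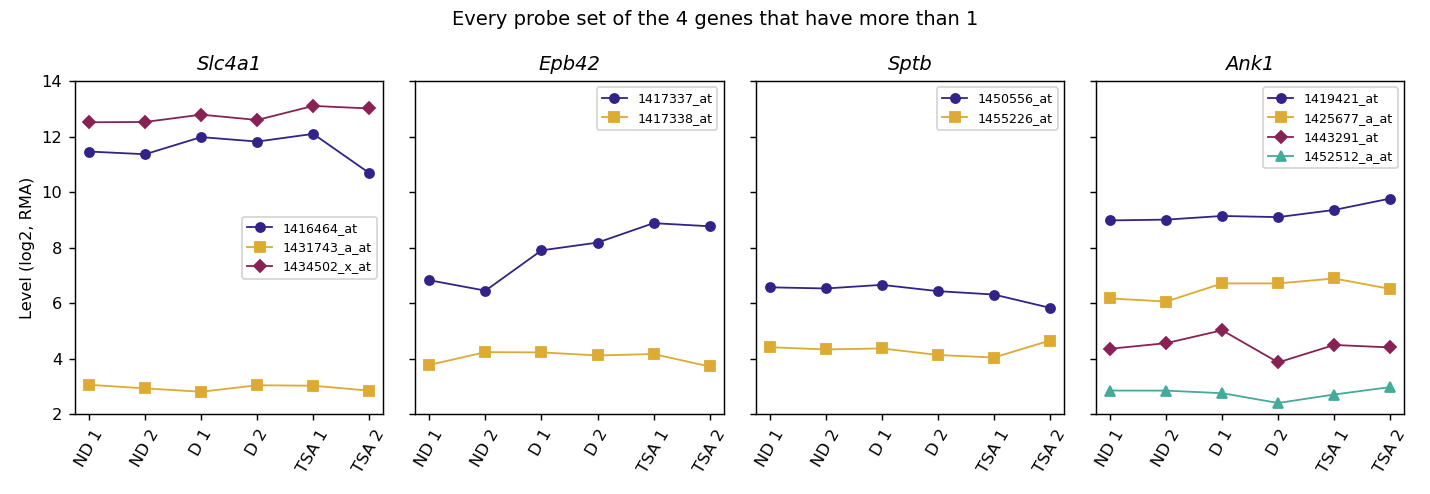
Log2 level of every probe set of the 4 genes that have more than 1, on the 6 arrays in the order untreated non-diabetic (ND), diabetic (D) and TSA-treated (TSA), with 1 line per probe set. The bright *Slc4a1* probe sets part on TSA replicate 2, at 13.01 and 10.69, and the probe sets near 4 or below are close to the array medians.

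Counted over the 8 genes, the diabetic arrays lay wholly above the untreated non-diabetic arrays in 7 genes, *Sptb* being the exception, and wholly below in 0. Of all probe sets, 21.6% were separated upward in this comparison and 19.4% downward, and among the 9537 probe sets brighter than the dimmest of the 8 the upward share was 34.6%. TSA-treated mice were separated upward in 5 genes (*Ermap*, *Rhd*, *Slc4a1*, *Epb42* and *Ank1*) and downward in *Sptb*, against 26.3% and 21.5% of all probe sets and an upward share of 33.9% in the brighter set. Diabetic mice were wholly below TSA-treated mice in 4 genes (*Ermap*, *Slc4a1*, *Epb42* and *Ank1*) and wholly above in *Sptb*, against 16.2% and 11.4% of all probe sets. The same 4 genes therefore ran from untreated non-diabetic through diabetic to TSA-treated mice without overlap, an order that 3.35% of all probe sets and 6.38% of the brighter ones showed. On these probe sets the 4 genes are thus ordered as the beta-actin 3′ to 5′ gap was. The next brightest probe sets of *Slc4a1* and *Ank1* were not in that order, which 4 of the 15 probe sets of the 8 genes showed. That of *Slc4a1* was not separated upward in TSA-treated mice either. With TSA replicate 1 as the only TSA array, 7 genes were above both untreated non-diabetic arrays and 1 below (38.8% and 40.2% of all probe sets), and the 7 were also in that order (7.16%). With TSA replicate 2 alone, 5 were above and 3 below (51.1% and 34.4%), and 4 were in that order (8.23%). As the genes were chosen with these comparisons known, nothing is inferred from the counts.

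The median difference over the 8 genes was 0.47 for diabetic and 0.55 for TSA-treated against untreated non-diabetic mice, while the median over all probe sets was 0.01 and 0.05. On single arrays, the median of the 8 genes stood 0.46 above the untreated non-diabetic mean on each diabetic array, 1.00 above on TSA replicate 1 and 0.43 above on TSA replicate 2. Without TSA replicate 2 the median difference of TSA-treated mice was thus 1.00. Of the 8 genes, 5 (*Ermap*, *Rhd*, *Slc4a1*, *Epb42* and *Ank1*) were above the untreated non-diabetic mean on all 4 arrays of diabetic and TSA-treated mice, on the probe set used. The same held for 8927 of all 45037 probe sets and for 2649 of the 9537 brighter ones.

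**Figure D3:**
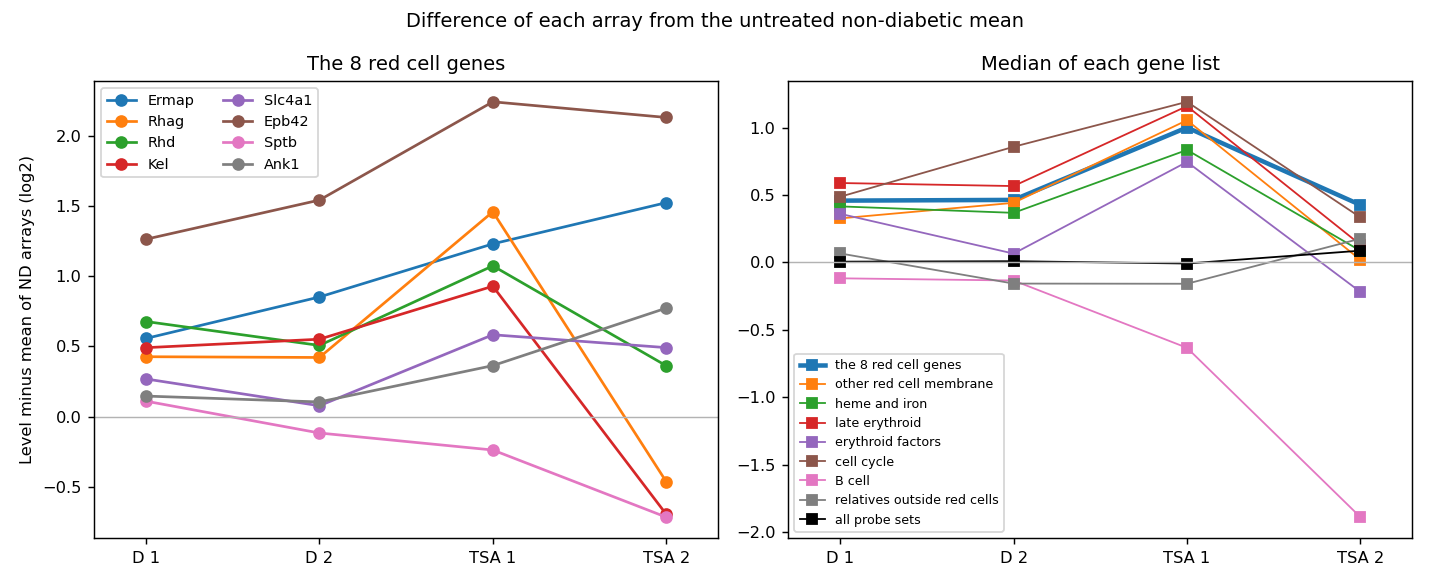
Level on each diabetic (D) and TSA-treated (TSA) array minus the mean of the untreated non-diabetic (ND) arrays, in log2 units, for the 8 genes (left) and as medians of gene lists and of all probe sets (right). *Epb42* and *Ermap* stay high on TSA replicate 2, where *Rhag*, *Kel* and *Sptb* lie below 0, and the median of the B cell list reaches -1.89.

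The 8 genes were unlike in how closely their duplicates matched. Between the TSA arrays, *Rhag* and *Kel* differed by 1.92 and 1.63 and *Rhd* by 0.71, whereas *Epb42* and the brightest *Slc4a1* probe set differed by 0.11 and 0.09 in the same direction, and *Ermap* and *Ank1* by -0.29 and -0.41 in the opposite one. The gap between the diabetic arrays was at most 0.30 in any of the 8 genes, and between the untreated non-diabetic arrays at most 0.37. When each profile over the 6 arrays was centred on its own mean, the root mean square difference was smallest for *Slc4a1* and *Ank1* (0.15) and for *Rhag* and *Kel* (0.23), and largest for *Epb42* and *Sptb* (1.11). *Ermap* was nearest to *Ank1* (0.36) and to *Epb42* (0.39).

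Beyond the 8 genes, the profiles most like that of *Ermap* among the 8651 probe sets with a range of at least 1 log2 unit that name 1 gene belonged to *Cpeb3*, *Ncaph*, *Rif1*, *Dnajc6*, *Fam241a*, *Camsap2*, *Uros*, *Mms22l*, *Rrm2* and *Usp15*. Their root mean square differences from *Ermap* ran from 0.06 to 0.09 over the 6 arrays. For *Epb42* the nearest were *Ncapg*, *Tspan8*, *Nxpe2*, *Kif18a* and *Sgo2a*, at 0.13 to 0.15. *Ncaph* and *Ncapg* encode condensin subunits and *Kif18a* a mitotic kinesin, while *Uros* encodes an enzyme of heme synthesis. The *Uros* probe set near *Ermap* is the dimmer of 2, at 4.38 to 6.01. On the brighter one the TSA arrays, 9.24 and 8.68, overlapped the diabetic ones, 8.50 and 8.98.

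A list of 30 other red cell membrane and blood group genes, of which 27 were measured, was set beside the 8 genes. In a limma fit over all probe sets (Benjamini-Hochberg adjustment, threshold 0.05), 0 of the 27 passed in any comparison. Of all probe sets, 0.0866% passed as higher and 0.00222% as lower for diabetic against untreated non-diabetic mice, 0.0577% and 0.0111% between TSA-treated and untreated non-diabetic mice, and 0.0244% and 0.00222% for diabetic against TSA-treated mice. At an unadjusted p under 0.05 the list had 1, 9 and 2 genes in these comparisons, where 6.27%, 14.7% and 4.27% of all probe sets passed. The methods' t-test gave 0 after adjustment and 5, 0 and 0 without it, where 5.92%, 11.6% and 3.02% of all probe sets passed. The median difference of the list was 0.40 in diabetic and 0.38 in TSA-treated mice, and the latter was 1.06 on TSA replicate 1 and 0.02 on replicate 2. Between those arrays 13 of the 27 genes differed by more than 1 log2 unit.

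The water channel gene *Aqp1* showed the widest gap. It read 9.98 and 10.07 in untreated non-diabetic, 10.76 and 10.70 in diabetic and 11.27 and 8.42 in TSA-treated mice, and so was highest and lowest on the TSA arrays, as *Rhag* and *Kel* were. *Dmtn* (dematin, an actin bundler of the membrane skeleton) stood 0.46 above the untreated non-diabetic mean on TSA replicate 1 and differed from it by -1.48 on replicate 2, and *Stom* (stomatin) by 0.59 and -1.33. The largest differences between TSA-treated and untreated non-diabetic mice on all arrays were 1.37 for *Abcg2*, a transporter that carries the Junior blood group (1.79 on TSA replicate 1 and 0.95 on replicate 2), and -1.06 for *Tpm3*, a tropomyosin (-0.76 and -1.36). Their limma adjusted p were 0.17 and 0.22. *Art4*, which carries the Dombrock group, was dim, at 2.92 and 2.96 in untreated non-diabetic and 4.55 and 3.45 in TSA-treated mice.

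**Figure D4:**
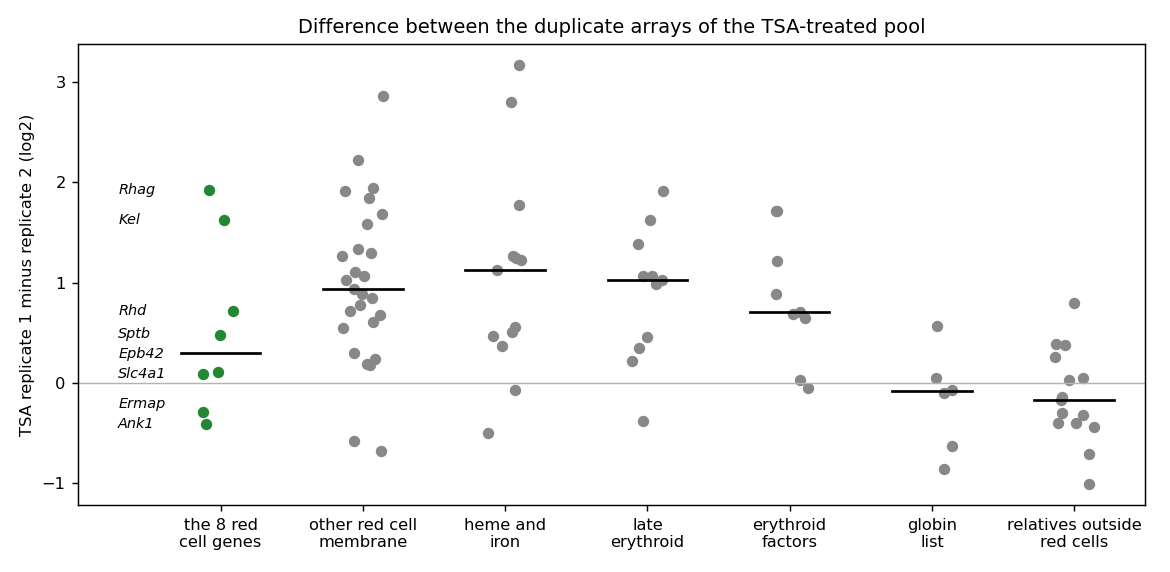
TSA replicate 1 minus TSA replicate 2 in log2 units, with 1 point per gene and a horizontal line at the median of each list, and the gene names stand in the order of the points. The 8 genes spread from -0.41 (*Ank1*) to 1.92 (*Rhag*), and the medians of the other membrane, heme and late erythroid lists lie near 1, whereas that of the relatives outside red cells is -0.17. The relatives have a low median level, 4.07 to 4.59 on the arrays.

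The wider red cell programme was read from 4 lists, of globins, heme and iron handling, erythroid transcription factors and other late erythroid genes, with 39 of 47 genes measured. In limma, 0 of the 39 passed in any comparison, 8, 16 and 7 had an unadjusted p under 0.05, and the t-test gave 0 after adjustment and 11, 7 and 1 without it. Of all probe sets, 6.27%, 14.7% and 4.27% had an unadjusted p under 0.05 in limma, and 5.92%, 11.6% and 3.02% in the t-test. The median difference was 0.42 in diabetic and 0.57 in TSA-treated mice, and 0.97 and 0.16 on the TSA arrays taken singly. Within the lists the medians for diabetic and TSA-treated mice were 0.42 and 0.47 for heme and iron, 0.25 and 0.35 for transcription factors, 0.57 and 0.84 for late erythroid genes and 0.23 and 0.58 for globins. On TSA replicate 1 and replicate 2 taken singly they were 0.84 and 0.09 for heme and iron, 0.75 and -0.22 for transcription factors, 1.16 and 0.13 for late erythroid genes and 0.54 and 0.63 for globins. The globin medians rest mostly on dim probe sets, and only *Hbb-b2* was bright, at 9.69 to 10.52. The median level of the globin list was 3.52 to 3.55 in untreated non-diabetic, 3.62 to 4.02 in diabetic and 4.61 to 4.84 in TSA-treated mice. The array medians were 3.79 to 3.95.

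*Tal1*, a master factor of blood formation, and *Urod*, an enzyme of heme synthesis, kept close duplicates like *Epb42*. *Tal1* read 9.43 and 9.42 in untreated non-diabetic, 10.31 and 10.64 in diabetic and 10.97 and 10.94 in TSA-treated mice. It differed by 1.53 in TSA-treated mice (limma adjusted p = 0.083) and *Urod* by 1.35 (limma adjusted p = 0.083). Both passed in the fit of the TSA-treated and untreated non-diabetic arrays alone, at limma adjusted p of 0.036 and 0.043, a fit in which 714 of all probe sets passed against 31 in the fit of all arrays.

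By contrast, *Alas2*, the first enzyme of erythroid heme synthesis, read 11.12 and 11.09 in untreated non-diabetic, 11.24 and 10.96 in diabetic and 11.39 and 8.60 in TSA-treated mice. Its low value stood on TSA replicate 2 alone, as for *Rhag* and *Kel*. *Ppox*, also of heme synthesis, differed from the untreated non-diabetic mean by -0.09 on TSA replicate 1 and by -3.26 on replicate 2. Other large differences in TSA-treated mice are each followed by the values on TSA replicates 1 and 2. They included 0.99 (1.23 and 0.76) for *Cpox*, also of heme synthesis, and 0.95 (1.39 and 0.50) for the factor *Klf1*. Among the late genes they included 1.43 (1.92 and 0.93) for *Car1*, 1.11 (1.28 and 0.94) for *Car2* and 0.97 (1.20 and 0.74) for *Bpgm*. The factor gene *Ldb1* and the embryonic globin gene *Hbb-y* were at or below the array medians in at least 1 of the groups. *Ldb1* read 4.89 and 5.79 in untreated non-diabetic mice and 3.58 and 2.94 in TSA-treated mice, and *Hbb-y* read 3.12 and 2.85 and then 4.93 and 5.78. The 4 probe sets shared by adult globin genes read 14.38 to 14.81 on every array, where 14.81 is the highest value of the table, which leaves little room on the scale for a higher level.

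Relatives of the 8 genes that act mainly outside red cells were also measured, 15 of 18. In limma 0 passed, with 1, 4 and 3 at an unadjusted p under 0.05 and 1, 1 and 0 by the t-test without adjustment (0 with it). The unadjusted shares of all probe sets were 6.27%, 14.7% and 4.27% in limma and 5.92%, 11.6% and 3.02% in the t-test. Their median difference was -0.09 in diabetic and 0.06 in TSA-treated mice (-0.16 on replicate 1 and 0.18 on replicate 2), against 0.47 and 0.55 for the 8 genes. The relatives were much dimmer, so the 2 sets are not alike in level. Their median level was 4.34 to 4.59 in untreated non-diabetic, 4.07 to 4.34 in diabetic and 4.32 to 4.55 in TSA-treated mice. For the 8 genes it was 8.80 to 8.90, 9.16 to 9.18 and 9.05 to 9.73, and the array medians were 3.79 to 3.95. The largest differences in TSA-treated mice were -0.98 for *Slc4a2*, an anion exchanger related to band 3 (-0.79 on replicate 1 and -1.17 on replicate 2), and -0.89 for *Tgm1*, a transglutaminase related to protein 4.2 (-0.49 and -1.29). *Btn1a1*, a butyrophilin related to Ermap, was dim, at 3.36 and 3.28 in untreated non-diabetic and 3.99 and 4.32 in TSA-treated mice.

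Levels of marker genes of other cell types also differed between the groups. Whether the numbers of these cells differed cannot be told from RNA levels. The part of other cell types in the differences of the 8 genes was not tested. The 5 measured B cell markers of 6 were all lower on both TSA arrays than in untreated non-diabetic mice. Their median level was 10.82 to 10.86 in untreated non-diabetic, 10.46 to 10.78 in diabetic and 9.14 to 10.25 in TSA-treated mice, and *Cd79a*, a part of the B cell receptor, differed by -3.10, which is -1.96 on TSA replicate 1 and -4.24 on replicate 2. The T cell list (6 of 7 measured) had a median of 7.85 to 7.88, 7.55 to 8.16 and 6.99 to 7.78 in the same groups. Median differences in diabetic and TSA-treated mice were 0.34 and 0.03 for 10 macrophage genes, 0.55 and -0.55 for 7 neutrophil genes and -0.08 and -0.59 for 5 of 6 megakaryocyte genes. On TSA replicate 1 and replicate 2 taken singly the medians were 0.31 and -0.20 for macrophage, -0.03 and -1.07 for neutrophil and -0.59 and -0.63 for megakaryocyte genes. Of the 33 measured genes of these 5 lists, 0 passed in limma, 10, 20 and 10 had an unadjusted p under 0.05 in the 3 comparisons, and the t-test gave 0 after adjustment and 8, 8 and 2 without it. Over all probe sets the unadjusted shares were 6.27%, 14.7% and 4.27% in limma and 5.92%, 11.6% and 3.02% in the t-test. The 11 measured of 12 cell cycle genes, in which 0 passed and 3, 5 and 2 had an unadjusted p under 0.05, had medians of 0.68 and 0.77, which is 1.19 on TSA replicate 1 and 0.33 on replicate 2. The largest were 2.22 for *Bub1* (2.35 and 2.09), 1.33 for *Rrm2* (1.14 and 1.52) and 1.21 for *Ccnb2* (1.78 and 0.63). All 6 measured of 8 genes of the exocrine pancreas were higher in both groups, with a median level of 4.60 to 4.66 in untreated non-diabetic, 11.43 to 11.59 in diabetic and 8.34 to 8.92 in TSA-treated mice. In limma 6, 5 and 3 of them passed in the 3 comparisons.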

How the data were processed

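RNA pools of splenocytes from 3 groups were hybridized to Affymetrix mouse genome arrays. The authors used S+Array Analyzer 2.0.1 (run under S-Plus 6.2) for quantile normalization and RMA summaries. Deposited values are log2 levels. Of 45101 rows, 64 control probe sets were left out, and of the rest 34945 name 1 gene in the platform annotation, 932 several and 9160 none. Their number and the signal over background limit the precision of arrays. All 6 arrays were fitted in limma 3.58.1 (R 4.3.3) with 1 mean per group, on 3 residual and 2.94 prior degrees of freedom. P-values were adjusted over all probe sets by Benjamini-Hochberg, and the code was tested on simulated data. P-values measure only the spread between hybridizations of 1 pool. The t-test of the methods was run beside it, and the other test of the methods was not. The members, the 13 lists (151 gene entries, 131 measured) and the tests were chosen with earlier results of these data known. Named were all members, represented by the brightest probe set that names the gene alone (*Ermap* has 1), the called genes (up to 4) and the 3 largest differences of TSA-treated mice in the lists, and the nearest profiles to *Ermap* (10) and *Epb42* (5). Not every list gene that this rule takes is named here. *Aqp1*, *Dmtn*, *Stom*, *Cpox* and the word CACCC were picked after their values were seen. In the RefSeq promoter table TATAA was looked for in minus-strand windows, within a short stretch just before the start. It was there in 3.23% of them as given and in 1.30% reversed, by which the reading direction was checked. *Slc4a1* and *Ank1* have no entry there.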

Additional observations from a re-analysis of the deposited data

How the results depend on the processing

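The differences of *Ermap* and the median of the 8 genes kept their direction under every alternative run. Where a gene's probe sets were averaged, the median of TSA-treated against untreated non-diabetic mice fell to 0.391, below the 0.473 of diabetic mice. Diabetic against TSA-treated mice then gave a median of -0.0998. The median difference of the 8 genes between diabetic and untreated non-diabetic mice was 0.526 with median centring and 0.358 with quantile normalization repeated. Leaving out each array in turn gave 0.338 to 0.538 for it, 0.427 to 1.00 between TSA-treated and untreated non-diabetic mice, and -0.446 to -0.0443 for diabetic against TSA-treated mice, and for *Ermap* 0.557 to 0.852, 1.23 to 1.52 and -0.821 to -0.526. In all, 197 values under an alternative stayed within the spread or 1.5 times the count, and 28 did not.

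Of the counts called, those of the other membrane genes, the erythroid genes and the relatives were 0 in the 3 comparisons and became 1, 9 and 2, then 8, 16 and 7, and then 1, 4 and 3 at an unadjusted p under 0.05. The t-test without adjustment gave 5 membrane genes, 11 erythroid genes and 1 relative for diabetic against untreated non-diabetic mice, 7 erythroid genes and 1 relative for TSA-treated mice, and 1 erythroid gene for diabetic against TSA-treated mice. For TSA-treated mice the erythroid count was 2 in the fit of the 2 groups alone (*Urod* and *Tal1*) and 3 where a gene's probe sets were averaged (with *Hbb-y*). When arrays were left out in turn, most erythroid and membrane genes were called without TSA replicate 1, in both comparisons with TSA-treated mice. There the lone TSA array is assumed to vary like the other groups, so effect sizes alone are given. Against untreated non-diabetic mice, *Aqp1* (-1.61), *Dmtn* (-1.48), *Stom* (-1.33), *Alas2* (-2.51) and *Ppox* (-3.26) were lower. Called as higher were *Hbb-y* (2.80), *Urod* (1.38) and *Tal1* (1.52). Against diabetic mice the same membrane genes, *Alas2* and *Ppox* were also lower in TSA-treated mice and *Hbb-y* was higher. Without either diabetic array, *Urod* and *Tal1* were called for TSA-treated against untreated non-diabetic mice. Over all probe sets, all arrays gave 31 calls between TSA-treated and untreated non-diabetic mice and 12 for diabetic against TSA-treated mice. Without either diabetic array the former comparison is the same as the fit of the 2 groups alone, because a lone diabetic array adds no spread. More probe sets were called in both comparisons without TSA replicate 1, and the cause was not tested.

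Replicate numbers did not pair the arrays: deviations of same-numbered arrays correlated at -0.335, -0.036 and -0.105. With the replicate number as a block, the counts of all 3 lists were 0 and the *Ermap* difference of TSA-treated mice was 1.38, while calls over all probe sets went from 40, 31 and 12 to 33, 30 and 0. With the diabetic numbers crossed, an alternative chosen after seeing the data, they were 41, 27 and 0.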
